A study of Sus scrofa with 8 samples.

Results

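The 3 hearts given vehicle in a study of miniature pigs were described here on their own, as a baseline of the pig cardiac transcriptome. They were chosen by their treatment label and are 3 of 8 samples. The other 5 were from animals given doxorubicin, an anthracycline cancer drug known for its toxicity to the heart, and entered no value below. Every sample is labelled as wild-type heart of Sus scrofa, and no allele or agent other than the vehicle is named for the 3. The labels do not say which chamber was taken, what the vehicle was, how old the pigs were or of which sex, nor that the replicates came from separate animals. The spread between them is therefore the spread between these 3 samples, and part of it may be technical. All values describe 1 condition, so no groups were compared and no test between groups was run.

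Heart muscle contracts by sliding thick filaments of myosin along thin filaments of actin, a movement that troponin and tropomyosin switch on when calcium leaves the sarcoplasmic reticulum. Most sarcomere proteins exist as isoforms made from separate genes, and chambers, fibre types and developmental stages are told apart by which isoform they use. The work is paid for by mitochondria that burn mainly fatty acids, with creatine kinase carrying the energy to the filaments. The mitochondrial genome itself codes for a small set of respiratory chain proteins, and the nucleus supplies all the others. The tissue also holds fibroblasts, endothelial cells, smooth muscle cells, pericytes and leukocytes, whose RNA is mixed into a bulk sample. In such a sample, fewer cells of a type and less RNA per cell cannot be told apart.

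The libraries held 16307586, 17195538 and 16105242 counts in replicates 1, 2 and 3. Of 31014 listed genes, 12238 reached 1 CPM (count per 1000000 counts of its library) in all 3 libraries, and 11331 had no read in any. Of the detected genes 11633 were annotated as protein-coding, 394 as long non-coding RNA and 140 were unannotated loci. Some genes tagged as long non-coding, among them GSN, EIF4B and HNRNPU, are known for their proteins, so the tag is not a clean class. A few genes held much of each library: 122 genes made up 50% of the counts averaged over the libraries, and the 10 most read genes took 28.8% to 31.4%. Pairs of libraries correlated at Pearson's r of 0.992 to 0.995 across genes on the log2(CPM + 1) scale, where genes are not independent replicates. Their chi-square statistics per degree of freedom were 14.1 to 28.2, where sampling noise alone gives about 1, so none was a copy of another. The common biological coefficient of variation from edgeR was 16.8%. Among 8075 genes with a mean of at least 10 CPM, the median coefficient of variation (CV, the SD over the mean) was 11.98%, and 133 genes (1.65%) differed by over 2-fold between the highest and the lowest library. That 1.65% is the background for each such count below.

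The 5 cardiac genes taken as markers of the labelled tissue were all read in every library. Levels between genes are compared in TPM (transcripts per 1000000), here counts divided by the gene length in the deposited table and scaled to that sum in each library. MYH7, the slow beta myosin heavy chain, stood at 8142, 7070 and 9198 TPM in replicates 1, 2 and 3. CKM, the muscle creatine kinase of the cytosol, stood at 5696, 6739 and 7283 TPM. PLN, phospholamban, which restrains the calcium pump of the sarcoplasmic reticulum, stood at 5438, 4588 and 5018 TPM. FABP3, the fatty acid binding protein of heart muscle, stood at 2652, 3487 and 3241 TPM. RYR2, the channel that releases calcium for contraction, was lower at 247, 119 and 192 TPM. The first 4 differed by at most 1.43-fold between libraries in TMM-scaled CPM, and RYR2 by 1.92-fold, with replicate 1 highest and replicate 2 lowest.

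Mitochondrial DNA supplied a large share of the reads. Its 38 listed loci took 27.5%, 24.7% and 23.6% of the counts in replicates 1, 2 and 3 (mean 25.3% ± 1.99, SD, n = 3), and 41.8% ± 4.25 of the TPM. Its 13 protein-coding genes carried 25.0% ± 2.01 of all counts, while its 2 ribosomal RNAs carried 0.174% ± 0.0162. On the per-length scale 12 of the 30 most abundant genes were mitochondrial, and among the 20 genes with most counts 9 were.

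COX1, the catalytic subunit of cytochrome oxidase, was the most abundant gene by either scale. It had 1880435, 1898416 and 1886496 counts, or 128937, 116583 and 131664 TPM, so that 11.4% ± 0.348 of all counts came from this gene alone. COX2, ATP6 and COX3 followed at 67261 ± 7191, 59503 ± 11440 and 51777 ± 4116 TPM. CYTB, the mitochondrial subunit of complex III, stood at 22054 ± 2434 TPM. The 7 complex I subunits were lower and spread widely, from 21766 ± 5609 TPM for ND4 to 6133 ± 986 TPM for ND1, a level that COX1 exceeded 20.8-fold ± 2.94. The order among the genes was therefore cytochrome oxidase and ATP synthase subunits first, then CYTB and complex I subunits, with CYTB and ND4 within each other's SD.

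All 7 mitochondrial complex I subunits were highest in replicate 1. Their 7 genes took 6.01% of the counts in replicate 1, 3.84% in replicate 2 and 3.99% in replicate 3. The 3 cytochrome oxidase subunits took 16.9%, 16.5% and 16.2% in the same libraries. ND5 had 238895, 129351 and 145628 counts, a highest-to-lowest ratio of 1.90, and ND2 had 121934, 75365 and 74366 counts, a ratio of 1.67. ND4L, ND6 and ND4 showed ratios of 1.69, 1.58 and 1.53, and ND1 and ND3 smaller ones of 1.33 and 1.31. ATP6 was low in replicate 3, at 295441 counts against 443177 and 450663, and so was COX2, at 381793 against 481856 and 491271.

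Several mitochondrial values are uncertain from how the genes lie. ATP8 (mitochondrial DNA, 8959 to 9162) overlaps ATP6 (9120 to 9800) and had only 7, 14 and 35 counts, so its level cannot be read beside that of its neighbour. ND6 lies on the opposite strand to the other protein-coding genes, and whether counting used the strand is not given in the sources used here. An unannotated locus on chromosome 9 (Sscrofa11.1, 4696569 to 4702192, plus strand), which the deposited table describes by its likeness to COX1, had 451546, 439054 and 446805 counts. It took 2.70% ± 0.126 of all counts and ranked 4th by count among all genes. Reads of a nuclear copy and of mitochondrial COX1 cannot be told apart here.

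**Figure D1:**
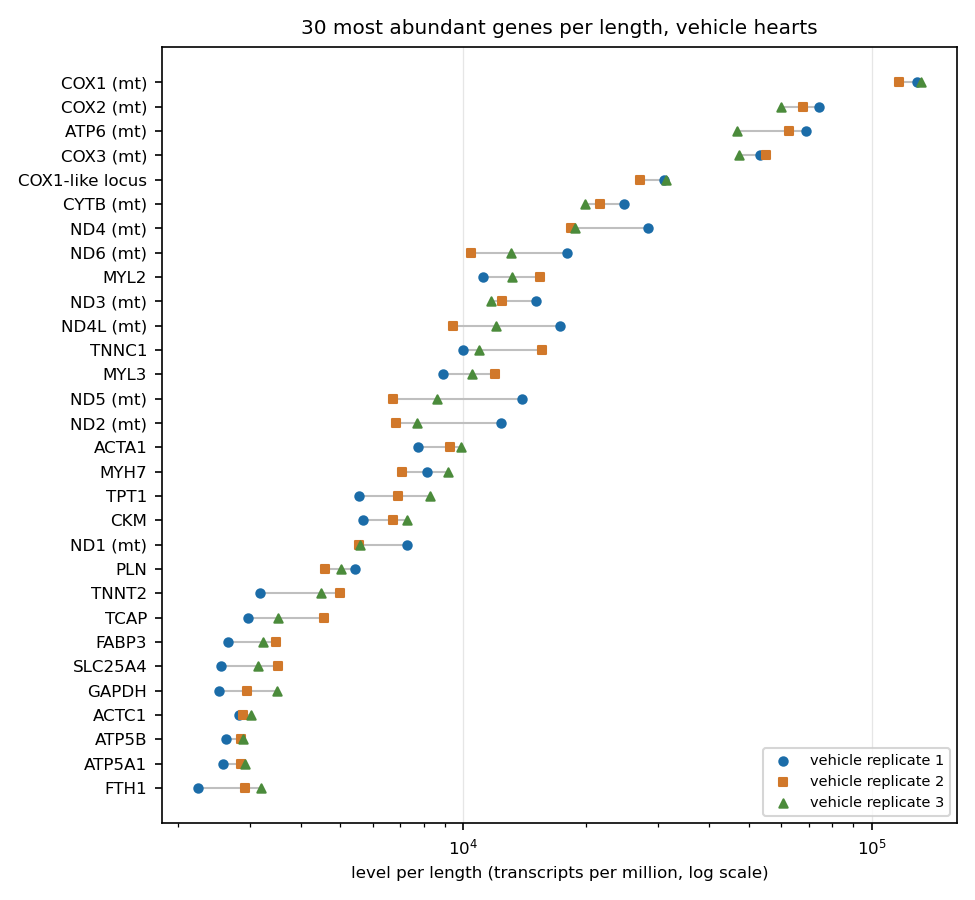
Level per length in TPM (log axis) of the 30 genes highest by the mean of the 3 vehicle libraries, 1 row per gene and 1 symbol per library; (mt) marks mitochondrial DNA. COX1 lies furthest right, at 116583 or more in every library, the complex I subunits are highest in replicate 1, and MYL2, TNNC1 and MYL3 are the highest annotated nuclear genes.

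Genes of the contractile filaments took more counts than any other nuclear list by function. The 19 listed genes took 7.46%, 8.15% and 8.38% of the counts in replicates 1, 2 and 3 (7.99% ± 0.475), which was 11.1% ± 0.352 of nuclear counts without the COX1-like locus. Per length they held 6.60% ± 0.789 of the TPM, and the cytosolic ribosomal proteins 6.83% ± 1.34, so the SDs overlapped. With the Z-disc and costamere list they filled 17 of the 100 highest nuclear places per length. MYL2, the regulatory light chain of ventricular myosin, led all nuclear genes at 11161, 15415 and 13137 TPM. TNNC1, the calcium sensor of the thin filament, stood at 10009, 15609.7 and 10933 TPM, with replicate 2 high. MYL3, the essential light chain, stood at 8901, 11980 and 10514 TPM, lowest in replicate 1. ACTA1, the skeletal alpha actin, stood at 7744, 9260.1 and 9891 TPM, again lowest in replicate 1.

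The regulatory proteins of the filaments came next. TNNT2, which ties troponin to tropomyosin, stood at 4222 ± 931 TPM, and TNNI3, the inhibitory subunit, at 1358 ± 283 TPM. MYBPC3, cardiac myosin binding protein C, stood at 1209.9 ± 36.1 TPM and TPM1, alpha tropomyosin, at 1024 ± 87.7 TPM. TNNI3 is listed at 5440 bases and TPM1 at 5985 in the deposited table, and how these lengths were built is not given in the sources used here. A length beyond that of the transcripts present would lower both values. By counts without length TNNI3 ranked 16th and TPM1 20th among all genes. TTN, the giant spring of the sarcomere, had 82193, 41141 and 52846 counts and 58.4 ± 23.2 TPM over 104486 bases. Of 17 filament genes with at least 10 CPM, TTN alone differed by over 2-fold between libraries (ratio 2.06), and none did once a trend along gene length was removed, which left TTN at 1.51.

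At the Z-disc, TCAP, the titin cap, stood at 2976, 4566 and 3514 TPM, highest in replicate 2. DES, the muscle intermediate filament desmin, stood at 2463 ± 242 TPM, MYOZ2, the calcineurin-binding calsarcin of the heart, at 1956 ± 193, and ACTN2, the alpha actinin that crosslinks thin filaments, at 1404 ± 138. CSRP3, the muscle LIM protein, stood at 1015, 1623 and 1149 TPM. All 26 genes of the list were detected, and PDLIM3 was the only one over 2-fold between libraries.

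Isoform families were described by the share of a family's summed TPM that its leading member held. In 61 families of cardiac interest with at least 2 members in the table, the leader held 90% or more in 30, and in 8 of these 99% or more. The leader was below 50% in 7. The same gene led in all 3 libraries in 58 families. The exceptions were the IP3 receptors, the pyruvate dehydrogenase kinases and the small heat shock proteins. Sarcomere families were led at 90% in 11 of 18 cases and calcium families in 5 of 8. Ion transport and receptor families were so in 4 of 7 and energy families in 8 of 19. A mixed group of regulators and other families was led at 90% in 2 of 9, the estrogen-related receptors and the globins. By counts without length neither reached 90%, with ESRRA at 70.6% and HBB at 81.6% of their families. The globin family held HBB, CYGB, HBM, HBA and NGB and did not include myoglobin. The striated alpha actins counted both as a family of their own and within all actins. Dropping the length correction gave 29 families led at 90%, 27 of them shared with the 30, and another leader in 4 families (calmodulin, glucose transporters, MEF2 and small heat shock proteins).

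**Figure D2:**
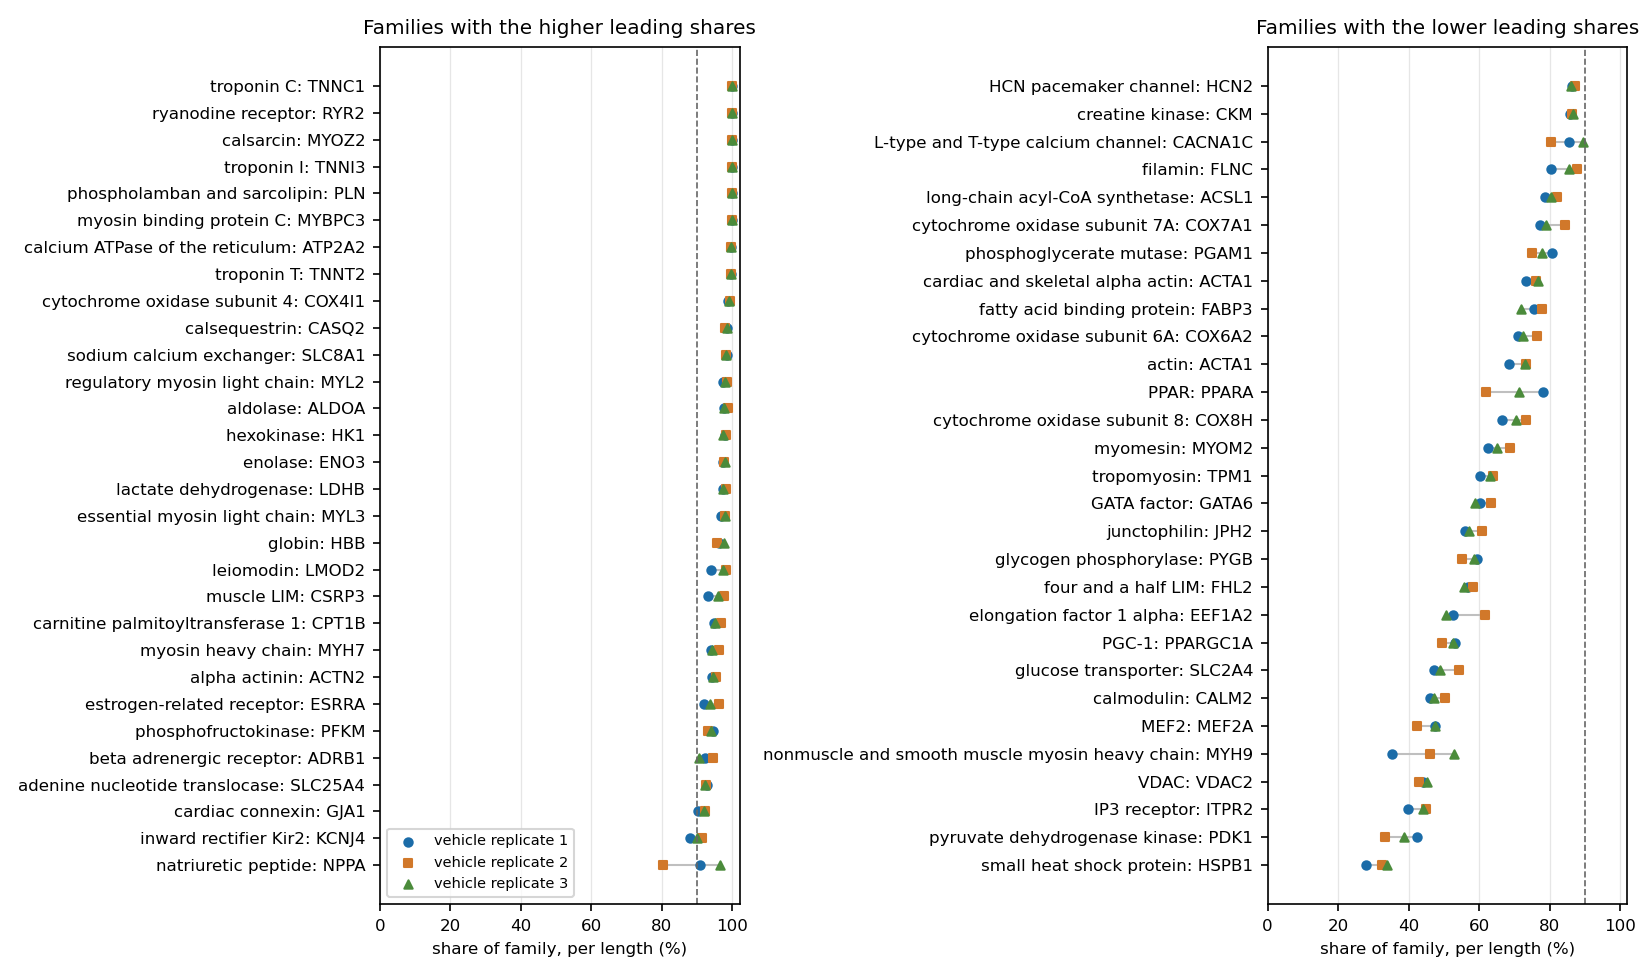
Share of each family's summed level per length held by its leading member (%, 1 symbol per vehicle library), with 59 of the 61 families split by rank into 2 panels and a dashed line at 90%. Troponin, ryanodine receptor and calcium pump families sit at the right edge, while nonmuscle myosins, PPAR receptors and natriuretic peptides show the widest scatter between libraries.

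The myosins were of the slow ventricular kind. MYH7 held 94.0%, 96.1% and 94.1% of the striated myosin heavy chain level in replicates 1, 2 and 3, and MYH6, the fast alpha chain, held 4.82% ± 1.18. MYH6 had 28935, 17137 and 31695 counts, with replicate 2 low, and the MYH7 to MYH6 ratio of TPM was 17.0, 27.8 and 17.2. The skeletal chains MYH1, MYH2 and MYH4 had 0 counts in all 3 libraries, as did MYH8 and MYH13. A count of 0 over the summed libraries allows up to 0.0605 CPM (3 counts, counting error only). MYL2 held 97.9% ± 0.607 of the regulatory light chains and MYL3 97.4% ± 0.586 of the essential ones. MYH6 and MYH7 are near-identical in long stretches, and how the authors' counting treated reads that fit both is not given in the sources used here.

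Striated alpha actin was mixed. ACTA1, the isoform named for skeletal muscle, held 75.4% ± 1.79 of the 2 striated alpha actins, and ACTC1, named for the heart, held 24.6% ± 1.79. The ratio was 2.74, 3.20 and 3.26 in replicates 1, 2 and 3, so ACTA1 was higher in each. ACTC1 itself was steady at 2822, 2891 and 3030 TPM. Both are near-identical over their coding sequence, so the split is uncertain in the same way as for the myosins.

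The troponins showed almost no second isoform. TNNT2 held 99.5% ± 0.0593 of troponin T, TNNI3 99.96% ± 0.0399 of troponin I and TNNC1 99.999% ± 0.00218 of troponin C. The fast skeletal TNNT3 and TNNI2 had 0 counts, and TNNC2 had 3 reads, all in replicate 2. MYBPC3 held 99.9% ± 0.0405 of myosin binding protein C. Tropomyosin was mixed, with TPM1 at 62.3% ± 1.91, TPM2 at 31.5% ± 1.66 and TPM4 at 5.28% ± 0.827. Myomesin, which crosslinks myosin at the M-band, was also mixed, with MYOM2 at 65.3% ± 3.14 and MYOM1 at 24.3% ± 2.37. FHL2 and FHL1, LIM proteins that bind titin, shared their family at 56.9% ± 1.38 and 42.0% ± 1.10.

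Calcium handling genes were led by PLN on the per-length scale. ATP2A2, the calcium pump of the cardiac reticulum, stood at 1079.6, 804 and 996 TPM, and PLN exceeded it by 5.04-fold, 5.71-fold and 5.04-fold. By counts the order was the reverse, since ATP2A2 is listed at 7499 bases and PLN at 735, and ATP2A2 had 76421, 63525 and 69244 counts. CASQ2, the calcium store protein, stood at 566, 539 and 558 TPM and was among the steadiest of the group (CV 3.15%). ATP2A2 held 99.6% ± 0.0332 of its family, RYR2 99.99% ± 0.00617 and CASQ2 98.3% ± 0.281. SLN, sarcolipin, the atrial relative of phospholamban, had 15, 40 and 25 counts, so PLN held 99.96% ± 0.0217 of that pair. None of the 14 genes of the list with at least 10 CPM differed by over 2-fold. JPH2 and JPH1, which hold the reticulum to the surface membrane, shared their family at 58.0% ± 2.55 and 41.2% ± 2.33.

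Ion channels and pumps were far less abundant, with a median of 14.95 TPM over 25 genes against 1024 TPM for the contractile list. GJA1, the main connexin of ventricular muscle, held 91.5% ± 1.01 of the cardiac connexins at 273, 224 and 239 TPM. ADRB1 held 92.4% ± 2.06 of the beta adrenergic receptors per length and 86.3% by counts alone. Among the inward rectifiers KCNJ4 exceeded KCNJ2 by 9.20-fold ± 1.68 per length but only 1.89-fold ± 0.345 by counts, since KCNJ2 is listed at 16180 bases and KCNJ4 at 3322. HCN2 held 86.5% ± 0.515 of the pacemaker channels at 3.804 ± 0.148 TPM, and HCN4, the channel of the sinus node, had 2 counts in all. KCNA5 and GJA5 were the 2 of 18 genes over 2-fold, KCNA5 with replicate 2 high (1206, 2113 and 962 counts) and GJA5 with replicate 1 high (513, 197 and 232 counts).

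Nuclear genes of the respiratory chain and ATP synthase took 2.56%, 3.26% and 3.01% of the counts. ATP5B and ATP5A1, the catalytic subunits of ATP synthase, led at 2795 ± 143 and 2793 ± 182 TPM. NDUFA4 followed among the chain subunits at 2235 TPM and COX4I1 at 1922 TPM. Subunits coded in the nucleus were far below their mitochondrial partners: the 12 nuclear genes taken for complex IV had a median of 934 TPM, and the lowest of the 3 mitochondrial ones stood at 51777 TPM. The 37 nuclear genes taken for complex I by the form of their NDUF symbol, NDUFA4 included, had a median of 315 TPM, below each of the 7 mitochondrial ones. For ATP synthase the 15 nuclear genes had a median of 759.6 TPM. The 37, 8, 12 and 15 genes taken for complexes I, III, IV and V, and the 4 of complex II, were taken only if they had a read. That all of them were detected in every library was therefore largely fixed in advance. Of the 68 genes in the respiratory chain and ATP synthase list, taken without that rule, 66 were detected and 2 had no read. A further 17 of the 84 symbols put on that list matched no gene, so its values cover the matched genes only.

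Muscle isoforms of cytochrome oxidase prevailed over the widely expressed ones, but not to the exclusion of them. COX7A1 held 80.2% ± 3.72 of subunit 7A, COX6A2 73.2% ± 2.85 of subunit 6A and COX8H 70.0% ± 3.43 of subunit 8. For subunit 6A the share was 94.3% by counts, since COX6A2 is listed at 3365 bases and COX6A1 at 554. COX4I1 held 98.99% ± 0.189 of subunit 4.

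Energy transfer and fuel genes followed the same muscle pattern. CKM held 86.2% ± 0.451 of creatine kinase, and CKMT2, the mitochondrial form of striated muscle, held 13.7% ± 0.392. SLC25A4, the adenine nucleotide translocase of heart and muscle, stood at 2559, 3525 and 3146 TPM and held 92.4% ± 0.286 of its family. FABP3 held 75.1% ± 3.004 of the fatty acid binding proteins, with FABP4, the form of adipocytes and capillaries, at 12.8% ± 1.97 and FABP5 at 12.1% ± 1.06. CPT1B, the muscle form of the enzyme that admits fatty acids to mitochondria, held 95.5% ± 1.02. MDH1, the cytosolic malate dehydrogenase, was the highest gene of the citrate cycle list at 2638, 2698 and 2897 TPM. HADHB, a subunit of the trifunctional protein of fatty acid oxidation, stood at 839, 921 and 896 TPM.

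Glycolytic genes were abundant as well. GAPDH stood at 2523, 2952 and 3498 TPM despite a listed length of 4718 bases, and ENO3, the muscle enolase, at 1948, 2385 and 2713 TPM. Both were lowest in replicate 1 and highest in replicate 3. LDHB, the lactate dehydrogenase subunit typical of the heart, exceeded LDHA by 34.5-fold, 50.003-fold and 36.8-fold per length, and by 17.4-fold, 25.3-fold and 18.6-fold by counts. ENO3 held 97.6% ± 0.252 of the enolases, ALDOA 97.9% ± 0.669 of the aldolases and PFKM 93.8% ± 0.776 of phosphofructokinase. HK1 held 97.8% ± 0.475 of the hexokinases, HK2 being lower in each library. PGAM1 and PYGB, the brain-type forms, exceeded the muscle-type forms PGAM2 and PYGM by 3.55-fold ± 0.579 and 1.498-fold ± 0.163, and by 2.14-fold and 2.43-fold in counts. SLC2A4, the insulin-responsive glucose carrier, stood at 105, 111 and 101 TPM and SLC2A3 at 104, 80.4 and 94.7, so the ranges overlapped, with shares of 50.2% ± 3.70 and 44.1% ± 4.15 among the glucose transporters. By counts SLC2A3 led with 59.1%.

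Genes of protein synthesis formed another broad class. The 85 cytosolic ribosomal protein genes took 2.56%, 3.86% and 3.63% of the counts, and 83 were detected. They filled 35 of the 100 highest nuclear places per length, led by RPL10 at 1704, 2668 and 2632 TPM. TPT1, the translationally controlled tumour protein, stood at 5556, 6939 and 8307 TPM. EEF1A2 and EEF1A1, the muscle and the general form of elongation factor 1 alpha, held 54.9% ± 5.84 and 45.1% ± 5.84 of their pair. EEF1A2 was higher by 1.11-fold, 1.60-fold and 1.02-fold, and the ranges of their TPM overlapped. Many of these genes have processed copies in the genome and their levels are uncertain for that reason.

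**Figure D3:**
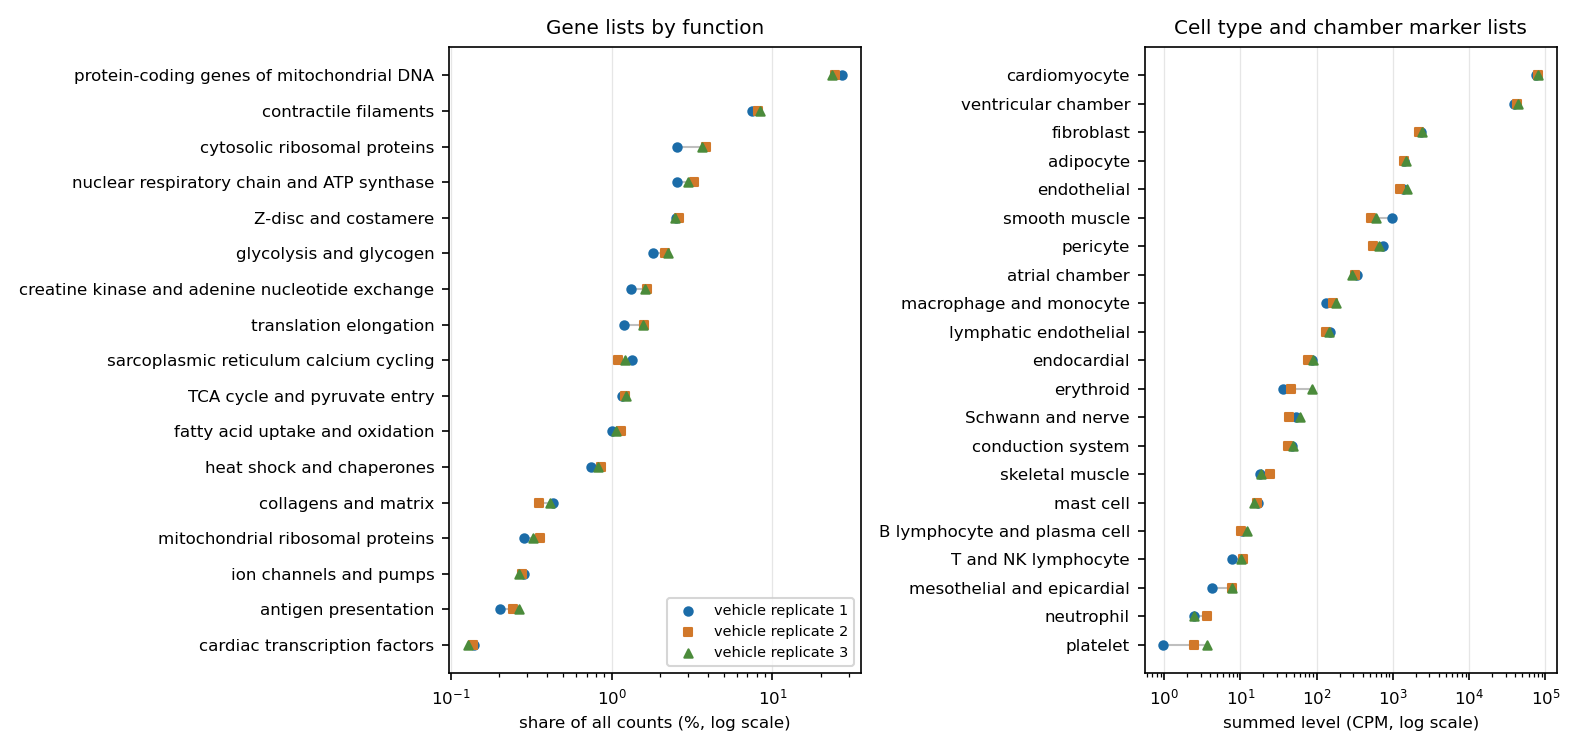
Left, share of all counts (%, log axis) taken by 17 gene lists; right, summed TMM-scaled CPM (log axis) of 21 cell type and chamber marker lists; 1 symbol per vehicle library. Mitochondrial DNA and contractile filaments lead on the left, cardiomyocyte and ventricular lists on the right, and the ribosomal, smooth muscle and erythroid lists show wide gaps between libraries.

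Transcription factors of the heart were present, since all 22 of the list were detected. Of all 31014 listed genes 12238 were detected, and of 20663 protein-coding ones 11633. Their median of 18.4 TPM was far below the 1024 TPM of the contractile list. It was not low among expressed genes, since the 8075 genes of at least 10 CPM had a median of 14.4 TPM. HAND2 stood at 96.4, 126 and 98.7 TPM, and ESRRA, an orphan nuclear receptor that drives mitochondrial genes, at 82.8, 128 and 91.2. NKX2-5 stood at 61.7, 104 and 72.7 TPM, so all 3 were highest in replicate 2. GATA6 exceeded GATA4 with 60.8% ± 2.37 against 35.2% ± 1.94 of the family. ESRRA held 93.9% ± 2.13 of its family per length but 70.6% by counts, since ESRRG is listed at 26192 bases. PPARGC1A, the coactivator of these receptors, held 51.7% ± 2.01 of its family at 10.1 ± 1.80 TPM.

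Natriuretic peptides were barely expressed, whereas a stretch-related gene of the Z-disc was high. NPPA had 74, 113 and 147 counts and NPPB 0, 21 and 4 counts. NPPB was absent from the reads of replicate 1, where a count of 0 allows 3 counts. ANKRD1, the cardiac ankyrin repeat protein, stood at 1383, 1359 and 1504 TPM. CORIN, the protease that activates the peptides, stood at 27.0 ± 5.23 TPM.

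The chamber markers lay on the ventricular side. The 10 ventricular markers summed to 38999.8, 42007 and 43574 CPM in replicates 1, 2 and 3, and the 15 atrial ones to 343, 322 and 291. Most of the ventricular sum (mean 41527 CPM) came from MYH7, MYL2 and MYL3, at means of 28812.5, 7235 and 4558 CPM. These 3 are also in the cardiomyocyte list. The median gene stood at 81.2 TPM in the ventricular list and at 2.19 TPM in the atrial one. Of the atrial list 8 genes were detected. MYL7, the atrial regulatory light chain, had 135, 80 and 118 counts, MYL4, the atrial essential chain, had 8, 27 and 7, and MYL2 exceeded MYL7 by 549-fold to 1429.7-fold per length. The most abundant atrial-list genes were potassium channels, KCNA5 at 50.1 ± 17.5, KCNJ5 at 49.7 ± 16.3 and KCNJ3 at 38.8 ± 5.13 TPM. The conduction system list summed to 42.6 to 48.5 CPM. Skeletal muscle markers summed to 18.02 to 24.5 CPM, with 10 of 14 at 0 and CASQ1 giving most of it.

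Other cell types were present at far lower summed levels than cardiomyocytes, whose 16 markers came to 74108, 79488 and 80482 CPM. Fibroblast markers summed to 2331, 2178 and 2385 CPM, led by DCN at 362 ± 26.0 TPM, a collagen-binding proteoglycan. Endothelial markers summed to 1358, 1223 and 1533 CPM, led by PECAM1, a junction protein, at 178 ± 24.7 TPM. The adipocyte list came to 1410.01, 1412 and 1473 CPM, almost all of it from LPL, FABP4 and CFD, of which cardiac muscle and capillaries express the first 2. The adipocyte-specific ADIPOQ had 60, 30 and 265 counts and PLIN1 10, 1 and 52, both high in replicate 3, and LEP was at 0. Macrophage markers summed to 131, 162 and 178 CPM, led by the complement genes C1QB, C1QC and C1QA. Markers of T and NK cells, B cells, neutrophils and platelets each summed to at most 12.1 CPM in any library. None of the listed markers of these other cell types was among the 100 highest nuclear genes per length.

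Smooth muscle markers differed widely between the libraries. The 8 markers summed to 986, 521 and 593 CPM, and 5 of the 8 (MYH11, ACTA2, CNN1, LMOD1 and MYLK) differed by over 2-fold, against the background of 1.65%. MYH11, the smooth muscle myosin heavy chain, had 3297, 376 and 800 counts, a ratio of 9.03. ACTA2, smooth muscle actin, had 3589, 1217 and 1664 counts, a ratio of 3.04. Of the 8 markers, 7 were highest in replicate 1. Pericyte markers, by comparison, summed to 747, 554 and 664 CPM with no gene of the 5 at 10 CPM or more over 2-fold. Erythroid markers summed to 36.4, 46.3 and 86.2 CPM, carried by HBB, the beta globin, with 514, 703 and 1310 counts and replicate 3 high.

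The 133 genes over 2-fold were spread over all 3 libraries. Replicate 2 was the one standing apart from the other two in 86 of them, 49 times higher and 37 times lower. Replicate 1 stood apart in 34 and replicate 3 in 13. Without replicate 2 the count was 22, and without replicate 1 it was 47, where fewer libraries give fewer such genes by construction. Besides MYH11, LMOD1 and ACTA2, the 20 largest ratios included FMOD, a collagen-binding proteoglycan (441, 93 and 139 counts, ratio 4.89), and FIBIN (435, 161 and 139 counts, ratio 3.13), both high in replicate 1. DDAH1, which breaks down methylarginine inhibitors of nitric oxide synthase, was low in replicate 2 (492, 150 and 550 counts, ratio 3.78), as were C7 of the complement system and the kinase PAK1 (ratios 2.76 and 2.74). FSTL3, FGFRL1, TSPO, NRTN and WDR83OS were high in replicate 2 with ratios of 2.72 to 3.15. TSPO, an outer mitochondrial membrane protein, had 328, 1048 and 341 counts.

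B2M, the light chain of class I antigen presenting molecules, is listed at 2 places of chromosome 1. The row at 126865767 to 126878501 had 1134, 1474 and 3077 counts, with replicate 3 high and a ratio of 2.71. The row at 126837721 to 126844043 had 2294, 2779 and 2866 counts, a ratio of 1.25. Because the rows share a name and may share reads, the difference between them is uncertain. Of the 20 antigen presentation genes with at least 10 CPM, 15 were highest in replicate 3, against 1943 of all 8075 genes at that level, but B2M was the only one over 2-fold.

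**Figure D4:**
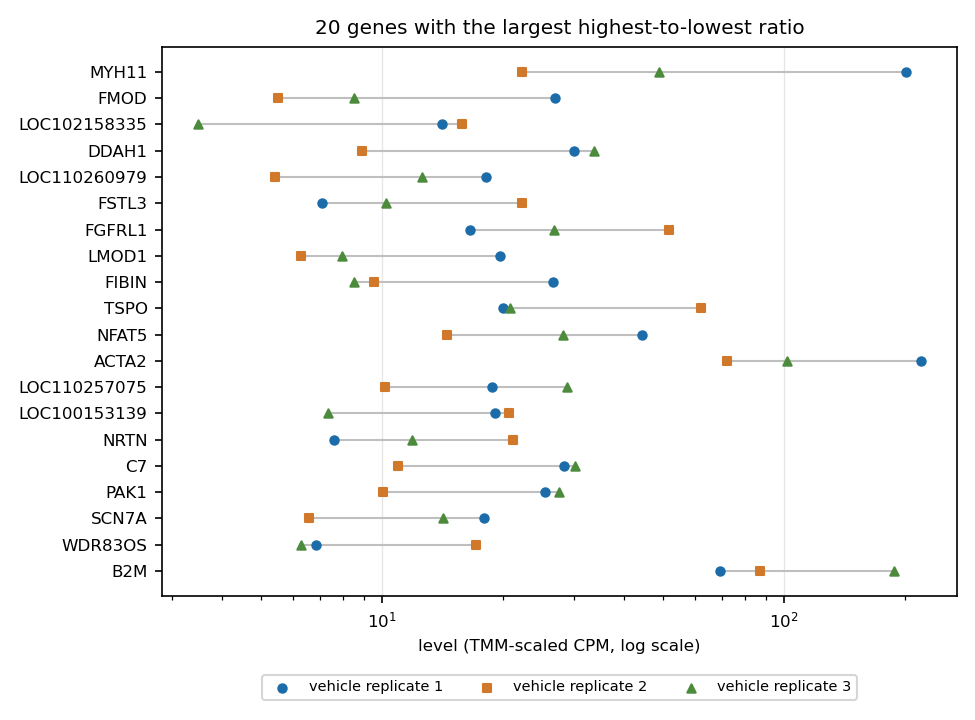
Level in TMM-scaled CPM (log axis) of the 20 named genes with the largest highest-to-lowest ratio among genes with a mean of at least 10 CPM, 1 symbol per vehicle library. MYH11 spans the widest range, with replicate 1 at the top, and replicate 2 lies at an end of most rows.

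Gene length ran with the differences between replicates 1 and 2. Among the 69 genes of up to 500 bases, the median log2 difference of replicate 1 minus replicate 2 was -0.57, and among the 436 genes over 12000 bases it was 0.40. Genes between 3000 and 4000 bases lay near equality, at -0.03. Of the shortest 69 genes, 6 were higher in replicate 1 than in replicate 2, and of the longest 436 genes 376 were. Replicate 3 lay between the other two in all 9 length classes.

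Some gene groups ran with their length and others did not. The 83 ribosomal protein genes with at least 10 CPM have a median length of 784 bases, against 3913 over all 8075 genes. Of them 82 were lowest in replicate 1, as were 3151 of all 8075. Highest in replicate 1 were 0 of the 83 before removal of the trend and 1 after, against 2887 and 2721 of the 8075. Highest in replicate 2 were 64 of the 83 before and 33 after, against 3245 and 2966 of the 8075. In the nuclear respiratory chain list 61 of 66 genes were highest in replicate 2, against 3245 of the 8075. The contractile list, with a longer median of 4945 bases, still had 11 of 17 genes highest in replicate 2, before and after removal of the trend. Among long genes, TTN and RYR2 were highest in replicate 1, with RYR2 at 38843, 20874 and 29609 counts. Taking out the running median of the log2 deviation along gene length, a step added after the data were seen, left 27 of the 66 respiratory chain genes highest in replicate 2, against 2966 of the 8075, and 93 genes over 2-fold instead of 133. The ratio of RYR2 then came to 1.43, that of TTN to 1.51 and that of MYH11 to 7.81, and 5 of the 8 smooth muscle markers were over 2-fold. The ratio of PLN rose from 1.10 to 1.57, while MYH7, CKM and FABP3 came to 1.18, 1.18 and 1.05. The mitochondrial genes are short but were highest in replicate 1 in 10 of 12 cases, so they did not follow the trend, and 4 of them came out over 2-fold once it was removed. RNA integrity and insert size were not analysed here, and their part in the trend was not tested.

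**Figure D5:**
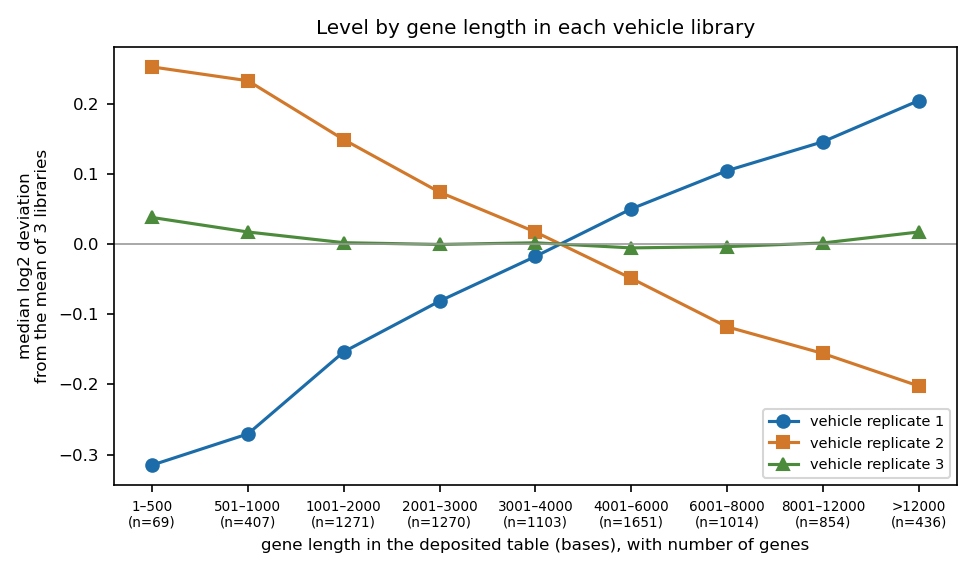
Median log2 deviation of each vehicle library from the mean of the 3 libraries (TMM-scaled CPM), in 9 classes of gene length with the number of genes under each. Replicate 1 rises from -0.32 to 0.20 with length, replicate 2 falls from 0.25 to -0.20, and replicate 3 stays within 0.04 of 0.

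The 10 lowest CVs among named abundant genes were 0.184% to 1.08%. They are minima picked from many genes (1242 at 100 CPM or more, named or not), each with 3 libraries. Most of them lie below what counting error alone would give, so they do not mark these genes as the steadiest. With the length trend removed, the highest-to-lowest ratios of the 10 ran from 1.01 for EIF4G2 to 1.19 for ART3. Among named genes with a mean of at least 100 CPM, NCOA4, a carrier of ferritin to lysosomes, had the lowest CV at 0.184%, with 198, 197 and 197 CPM. SKP1, a ubiquitin ligase adaptor, followed at 334, 332 and 335 CPM, and TMEM38A, a potassium channel of the sarcoplasmic reticulum, at 172, 172 and 173 CPM. DLST, a subunit of the oxoglutarate dehydrogenase complex, stood at 417, 413 and 413 CPM. The other 6 were RCAN1, RNF11, EIF4G2, ART3, PTCD3 and HNRNPA2B1, with CVs of 0.621% to 1.08%. Spread fell with level at first and then rose, with a median CV of 21.5% for 4844 genes between 1 and 10 CPM, 12.2% between 10 and 100, 10.1% between 100 and 1000, and 13.3% for 80 genes above 1000 CPM.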

How the data were processed

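RNA of heart tissue was sequenced after silica column extraction and library preparation with a SMARTER mRNA kit, per the labels' protocols. The authors deposited raw read counts per gene, in whole numbers whose sum differs between libraries. Aligner, counting tool, strand setting and handling of multiply matching reads: not given in the sources used here. Of 31014 identifiers, 30335 matched the RefSeq table of Sscrofa11.1, all with the same start and end, so coordinates are on that assembly. A further 25 genes named only by a LOC number were taken for the gene their deposited description names, a step added after the data were seen.

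The 3 vehicle columns were read through their titles. CPM were scaled by TMM (edgeR 4.0.16, R 4.3.3) for spread, and by library total for detection. Genes entered the dispersion estimate by filterByExpr (minimum count 10, minimum total 15). TPM used the deposited gene length, whose construction is not given in the sources used here. Tables were made in Python 3.11.15. The dispersion step was tested on simulated counts. Counting limits are 3 counts and cover counting error only.

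Named genes were MYH7, PLN, RYR2, CKM and FABP3, the 30 highest per length, the 20 highest by counts, up to 4 leading members of each list, family members of at least 1%, the 20 largest ratios of named genes with at least 10 CPM, and the 10 lowest CVs at 100 CPM or more. Others named for a ratio over 2-fold, for cell type or for length were chosen after their values were seen. Some genes that these rules take are not reported here. Members, lists and families were chosen with earlier results of these data known.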

Additional observations from a re-analysis of the deposited data

How the results depend on the processing

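Detection depended on its threshold, with 19683 genes having a read in any library and 7546 reaching 10 CPM in each, against 12238 at 1 CPM. Among genes outside mitochondrial DNA, the COX1-like locus included, 418 genes held 50% of the counts. Without that locus, 524, 435 and 454 genes did so in replicates 1, 2 and 3. The mitochondrial share of 25.3% became 28.0% with the COX1-like locus and 41.8% per length. The contractile share of 7.99% became 11.1% of nuclear counts and 6.60% per length. The median CV was 14.7% at 1 CPM or more, and 1163 and 10 genes were over 2-fold at 1 and at 100 CPM or more. Leaving out 1 library at a time gave median CVs of 8.10% to 12.9% and 22 to 104 genes over 2-fold. The common biological coefficient of variation ran from 13.3% without replicate 2 to 20.3% without replicate 3. The number of families led at 90% was 29 without length and with members found under their symbols alone, and 30 to 31 leaving out 1 library, while 38 were led at 80% and 23 at 95%. Scaling by RLE or by library size alone moved no count of genes over 2-fold by more than 1. Of 70 alternative values, 50 stayed within 1 SD or 1.5 times of the value reported, but part of that number was fixed in advance. For the shares of counts, leaving out 1 library cannot move the mean by 1 SD of the same libraries. For the median CV and the biological coefficient of variation, the SD was that of the leave-one-out values themselves. The 50 is therefore no measure of robustness. Coding length in place of the deposited gene length was not run. No paired analysis was possible because no groups were compared. With 3 libraries, a CV of a single gene is imprecise, and values of 1 gene under 10 counts are mostly counting error.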

Other observations

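Proteins annotated with a transcription factor family in the deposited table were examined after the results above were known. Of 1217 such nuclear genes, 768 were detected in all 3 libraries, against 11633 of 20663 listed protein-coding genes. The highest were the cold shock proteins YBX3, at 841, 964 and 1091 TPM, and YBX1, at 816 ± 137 TPM. YBX3 was 89th among nuclear genes per length, above every factor of the cardiac list, of which HAND2 was the highest at 107 ± 16.7 TPM. USF2 stood at 114 ± 17.1 TPM and ATF4 at 103 ± 10.2. ESRRA ranked 7th in this table by TPM and NKX2-5 9th.

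Interferon-induced genes were read in every library, with all 18 listed genes detected and a median of 25.8 TPM. IFI6 stood at 253 ± 57.4 TPM and CXCL10, a chemokine, at 107 ± 17.2, while acute phase and inflammation genes had a median of 0.565 TPM with 8 of 19 detected. Class II antigen presentation was led by CD74, the invariant chain, at 467, 542 and 644 TPM. Small heat shock proteins were high, with HSPB1 at 1148, 1675 and 1629 TPM, HSPB7 at 1372 ± 159 and HSPB6 at 1001 ± 212.

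An unannotated locus other than the COX1-like one differed over 2-fold between libraries. It had 7779, 8290 and 3689 counts, with replicate 3 low. KRT8, a keratin of the mesothelial list, had 6, 77 and 12 counts, with replicate 2 high. It lay below the mean of 10 CPM used for the 1.65% background. At a mean of 1 CPM or more, 1163 of 12919 genes were over 2-fold.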
